A study of Mus musculus with 6 samples.

Results

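Interferon-stimulated genes are the genes that cells switch on after an interferon binds its receptor, and 46 of them, chosen by symbol from a fixed list, were described here in T cells from mouse skin. All 46 were present among the 15106 genes of the deposited count table. After genes with too few counts to test were set aside, 45 of the 46 remained among 11775 tested genes; Oasl1, with 10 counts in a single library, did not. By their known roles, the members fell into 9 GTPases of the GBP and IRG families, 6 transcription factors and signalling genes, 14 antiviral effectors, 9 sensors and their regulators, and 8 PARP-complex and other induced genes. Regulatory T cells (Tregs, 4 libraries) were compared with effector T cells (Teffs, 2 libraries). Every library came from skin of mice aged 6 weeks with the FOXP3-GFP genotype, in which a green fluorescent protein reports FOXP3, the transcription factor that defines Tregs. The labels name no treatment, do not define Teffs further, and do not state that replicate libraries are separate animals. Each p-value therefore reflects only how much these 6 libraries scatter, which may be technical scatter in part.

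Type I interferons act through the receptor chains IFNAR1 and IFNAR2 and the kinases JAK1 and TYK2, which activate a complex containing STAT2 and IRF9 that binds interferon-stimulated response elements (ISRE) in promoters. Interferon gamma, the product of activated effector T cells and natural killer cells, acts through IFNGR1 and IFNGR2 and leads to binding at gamma-activated sites (GAS). Many genes respond to both, while the GBP and IRG GTPases are known in mice above all as interferon gamma targets, and the MX, OAS and IFIT genes as type I targets.

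The libraries held 4902126 to 7468778 counts in genes, and levels are given as CPM, counts scaled to a common library size with TMM factors. Detection needed about 3 counts, equal to 0.397 to 0.581 CPM, a floor that covers counting error only. Foxp3 was at 103, 233, 154 and 183 CPM in Treg libraries 1 to 4, against 11.3 and 7.17 CPM in Teff libraries 1 and 2, in the order of their labels. T cell markers (4 of 5 listed were found) summed to 2002 to 3711 CPM in Tregs and 3867 to 3870 CPM in Teffs. Genes with counts numbered 9602, 9838, 12605 and 11074 in the Treg libraries and 13197 and 11894 in the Teff libraries, so Treg 1 and Treg 2 detected the fewest genes. Treg 3 stood apart by markers of other skin cells: the 6 of 6 fibroblast markers found summed to 1994 CPM there and to 3.85 to 8.30 CPM in the other Tregs, against 3.88 to 176 CPM in Teffs. The 4 of 5 keratinocyte markers found summed to 566 CPM in Treg 3 and to 0.160 to 20.7 CPM in the other Tregs, against 38.2 to 90.2 CPM in Teffs. In bulk libraries such as these, fewer cells of a type and less RNA per cell cannot be told apart.

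No member passed edgeR's quasi-likelihood test at a Benjamini-Hochberg adjusted p under 0.05: it called 0 of 45, against 5 of all 11775 tested genes (0.0425%), and the smallest adjusted p of a member was 0.344. The same test did not call Foxp3 either, at a log2 fold change of 4.19 ± 0.61 (SE) and an adjusted p of 0.131. DESeq2 did call Foxp3, with an adjusted p of 9.49e-11. A count of 0 by edgeR therefore does not show that the members had equal levels. At an unadjusted p under 0.05 the same test gave 6 members, against 4.73% of all tested genes. Of these, 5 were higher in Tregs (Gbp3, Iigp1, Samhd1, Gbp7 and Igtp), against 2.42% of all genes, and 1 was lower (Oasl2), against 2.31%. DESeq2 called 5 of the 41 members to which it gave an adjusted p, against 1.78% of all genes. Gbp3, Iigp1, Samhd1 and Gbp7 were the 4 higher in Tregs (1.36% of all genes) and Oasl2 the 1 lower (0.418%). The authors' deposited table called 0 of the 45, against 0.285% of its genes, with its lowest false discovery rate among members, 0.0933, at Gbp3. In all, 7 members lay higher in every Treg library than in both Teff libraries, where 5.51% of all tested genes did, and 2 lay lower in every Treg library, where 9.49% of all genes did. The median log2 fold change (Treg minus Teff) was 0.30 over the 45 members and 0.07 over all tested genes. Of the members, 27 were above zero (60%, against 53.4% of all tested genes) and 18 below. Without Treg 1 the members' median was 0.04.

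**Figure D1:**
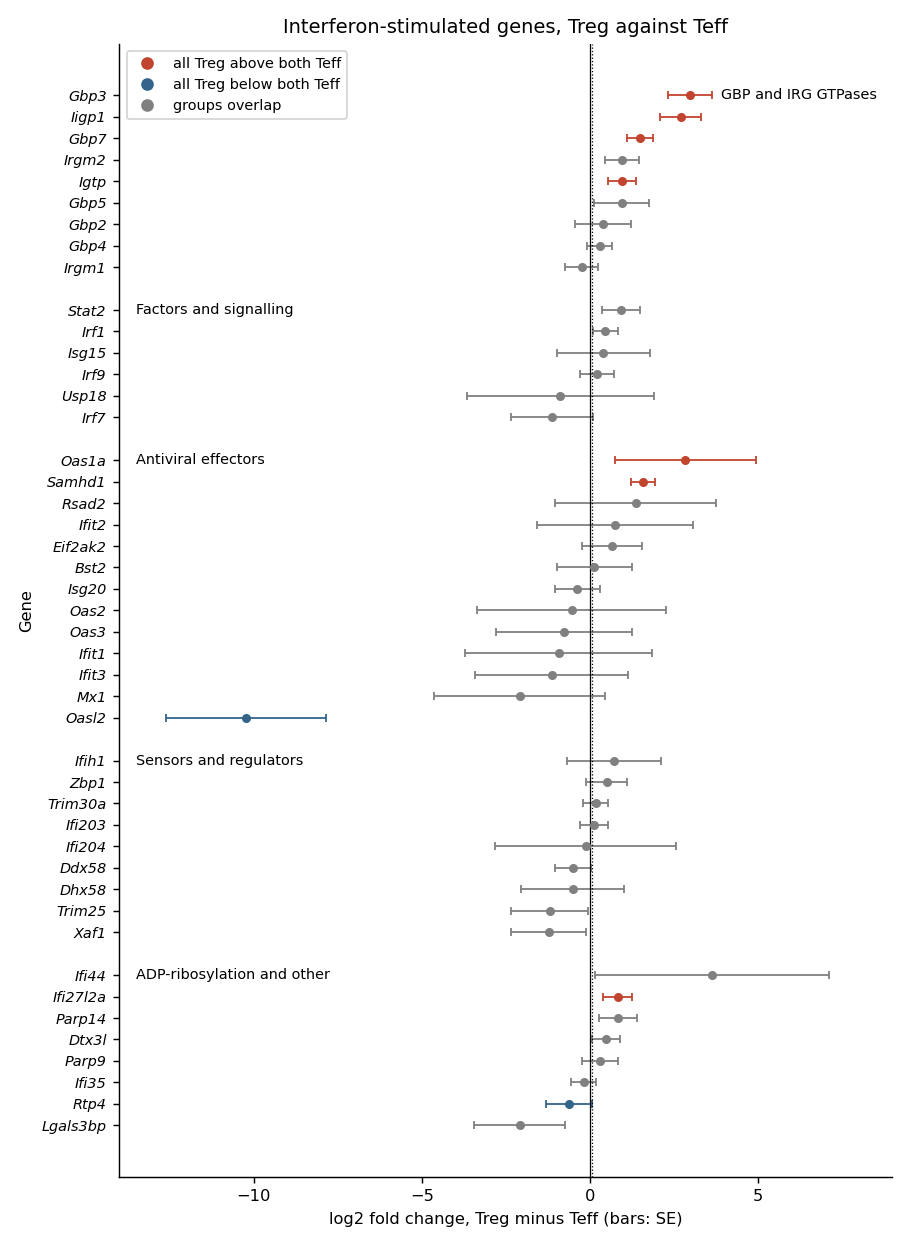
Log2 fold change (Treg minus Teff, x axis) with its standard error (bars) for the 45 tested members, grouped by role (y axis). Red points are the 7 members higher in every Treg library than in both Teff libraries, blue points the 2 lower in every Treg library, and grey points the members whose groups overlapped.

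Among the role groups, the GTPases had the highest median log2 fold change. Guanylate-binding proteins (GBP) and immunity-related GTPases (IRG) gather on the vacuoles of intracellular microbes and help to break them open. Of the 9 GTPase genes, 8 had a log2 fold change above zero, their median was 0.95, and none had a library without counts. Every Treg library lay above both Teff libraries for 4 (Gbp3, Iigp1, Gbp7 and Igtp), as for 5.51% of all tested genes.

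Gbp3, a guanylate-binding protein on chromosome 3 (GRCm38, chr3:142560026-142573209, plus strand), was at 517, 169, 165 and 443 CPM in Treg libraries 1 to 4, against 39.2 and 42.6 CPM in Teff libraries 1 and 2. Every Treg library lay above both Teff libraries, with Treg 1 and Treg 4 high and Treg 2 and Treg 3 close together below them. The mean was 324 ± 183 CPM in Tregs (SD, n = 4), against 40.9 ± 2.44 CPM in Teffs (SD, n = 2), a log2 fold change of 2.98 ± 0.65 (SE) with an edgeR adjusted p of 0.344 and a DESeq2 adjusted p of 0.000153. Iigp1, an IRG that attacks the vacuole of Toxoplasma in mice (chromosome 18, chr18:60376027-60392634, plus strand), was at 350.5, 167, 109.6 and 282 CPM in Tregs 1 to 4, against 36.1 and 33.9 CPM in Teffs 1 and 2. The groups did not overlap, and the Treg libraries had the same order as for Gbp3. Iigp1 averaged 227 ± 109 CPM in Tregs (SD, n = 4) and 35.0 ± 1.57 CPM in Teffs (SD, n = 2), a log2 fold change of 2.70 ± 0.60 (SE) with adjusted p-values of 0.372 by edgeR and 0.000625 by DESeq2.

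Gbp7, which lies beside Gbp3 (chr3:142530342-142550149, plus strand), was at 1298, 683, 776 and 857 CPM in Tregs 1 to 4, against 335 and 308 CPM in Teffs 1 and 2. Again no Treg library came down to the Teff level, and Treg 1 was the highest. Its mean was 903 ± 273 CPM in Tregs (SD, n = 4), against 321 ± 19.3 CPM in Teffs (SD, n = 2), a log2 fold change of 1.49 ± 0.38 (SE) with adjusted p-values of 0.572 by edgeR and 0.00434 by DESeq2. Of its 50-base stretches, 12.7% also occur in transcripts of other genes, mostly the overlapping Gm43802, so part of its reads could have been lost or split in counting. Igtp, an IRG also called Irgm3 that restrains other IRGs at the cell's own membranes (chr11:58199556-58207591, plus strand), was at 879, 667, 366 and 727 CPM in Tregs 1 to 4, against 320.0 and 362 CPM in Teffs 1 and 2. Treg 3 cleared Teff 2 by a narrow margin. The groups were no longer counted apart under upper-quartile scaling, without a filter on low counts, at a mean CPM of 10 or more, without Treg 4 or without Teff 1. The log2 fold change of Igtp was 0.95 ± 0.41 (SE) with adjusted p-values of 0.999976 by edgeR and 0.438 by DESeq2. Igtp shares 11.8% of its 50-base stretches with the overlapping Irgm2.

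**Figure D2:**
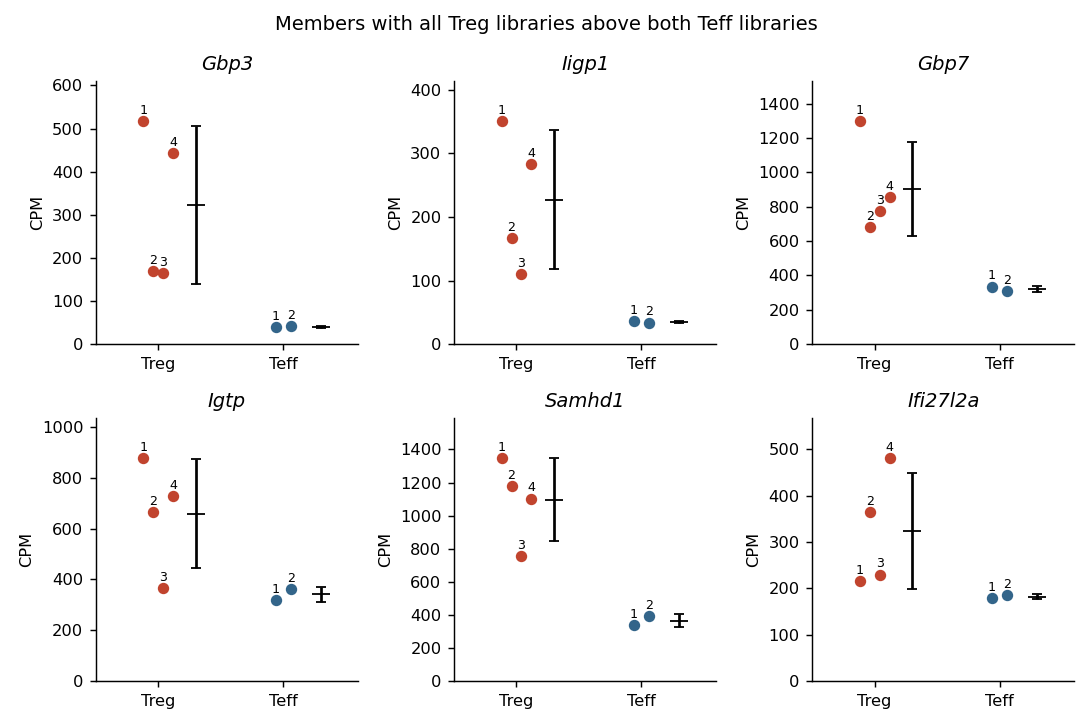
CPM (y axis, from 0) of 6 members in Treg (red, left) and Teff (blue, right) libraries, numbered by library; dashes with bars are the mean ± SD (n = 4 and n = 2). In each panel the Treg points lie above both Teff points, by the least margin in Igtp (366 CPM in Treg 3 against 362 CPM in Teff 2).

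The other 5 GTPases had overlapping groups. Irgm2, another IRG regulator, was at 199, 125, 86.6 and 222 CPM in Tregs 1 to 4 and 74.9 and 87.2 CPM in Teffs 1 and 2, with only Treg 3 inside the Teff range. Gbp5, which promotes inflammasome assembly in mice, was at 30.1 to 74.9 CPM in Tregs and 18.4 and 33.1 CPM in Teffs. Gbp2 ranged from 25.1 CPM in Treg 2 to 292 CPM in Treg 1, a wider span than that of the Teffs, at 99.4 and 166 CPM. Gbp4 on chromosome 5, the most abundant of these 5 by CPM, was at 1017, 773, 570.1 and 519 CPM in Tregs 1 to 4, against 613 and 557 CPM in Teffs 1 and 2. Treg 1 and Treg 2 were above both Teffs and Treg 4 below them, for a log2 fold change of 0.30 ± 0.37 (SE). Irgm1, which regulates IRG proteins and autophagy, was the sole GTPase with a fold change below zero, -0.25 ± 0.49 (SE). It had 124, 252, 379 and 396 CPM in Tregs 1 to 4, against 379.9 and 303 CPM in Teffs 1 and 2; it was lowest in Treg 1, the library in which Gbp2, Gbp3, Gbp4, Gbp7, Igtp and Iigp1 were highest. Without Treg 1 its log2 fold change was 0.0026.

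The promoters of the leading genes were read for the letters of both interferon elements. RefSeq promoter windows of 300 bases (250 before the annotated start and 50 after it, GRCm38.p6) were on hand for 34 of the 46 members, in 42 windows. The ISRE letters (GAAA, any 2 bases, GAAA), on either strand, occurred in a window of 20 of the 34 genes (58.8%), against 3.99% of 27025 genes with a window; the GAS letters TTCNNNGAA, which read the same pattern on both strands, occurred in 12 of 34 (35.3%), against 9.55%. All 7 GTPases with a window held ISRE letters and 4 of the 7 also GAS letters, against 7 of 12 and 6 of 12 antiviral effectors. Neither Iigp1 nor Gbp4 had a window. Shown are Gbp3 and Gbp7, the GTPases with the smallest p-values that had a window; Samhd1, the effector with the smallest p-value; and Ifit1, an effector found in a single Treg library. Capitals mark the ISRE or GAS letters, 5′ to 3′ on the gene's own strand.
Gbp3 (chr3:142559794-142560093, plus strand): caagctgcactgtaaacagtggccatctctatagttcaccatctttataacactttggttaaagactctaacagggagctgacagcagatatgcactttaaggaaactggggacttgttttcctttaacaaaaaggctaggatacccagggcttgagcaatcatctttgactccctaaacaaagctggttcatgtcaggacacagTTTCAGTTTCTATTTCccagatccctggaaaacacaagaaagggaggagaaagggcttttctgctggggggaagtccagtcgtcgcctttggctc
Gbp7 (chr3:142530086-142530385, plus strand): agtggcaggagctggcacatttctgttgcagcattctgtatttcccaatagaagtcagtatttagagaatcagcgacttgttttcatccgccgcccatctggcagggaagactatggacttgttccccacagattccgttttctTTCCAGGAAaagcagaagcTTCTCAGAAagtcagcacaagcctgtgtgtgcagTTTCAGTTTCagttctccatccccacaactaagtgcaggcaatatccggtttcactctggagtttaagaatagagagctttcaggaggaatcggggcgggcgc
Samhd1 (chr2:157135047-157135346, minus strand): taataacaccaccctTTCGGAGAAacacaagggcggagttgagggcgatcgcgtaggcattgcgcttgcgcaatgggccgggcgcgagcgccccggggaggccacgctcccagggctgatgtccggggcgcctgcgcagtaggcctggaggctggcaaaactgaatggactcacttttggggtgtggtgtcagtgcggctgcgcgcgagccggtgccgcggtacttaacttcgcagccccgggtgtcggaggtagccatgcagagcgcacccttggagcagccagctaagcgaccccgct
Ifit1 (chr19:34640639-34640938, plus strand): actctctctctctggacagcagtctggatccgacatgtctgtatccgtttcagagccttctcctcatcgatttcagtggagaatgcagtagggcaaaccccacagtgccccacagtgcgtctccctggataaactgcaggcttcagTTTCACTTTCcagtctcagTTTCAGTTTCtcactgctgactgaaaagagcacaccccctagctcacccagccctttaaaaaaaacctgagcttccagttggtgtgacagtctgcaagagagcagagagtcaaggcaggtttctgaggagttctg
In Gbp3 the capitals are 2 overlapping ISRE matches, the first beginning 45 bases before the annotated start of the window shown. The other Gbp3 window (chr3:142560106-142560405, plus strand) held neither ISRE nor GAS letters. Gbp7 holds 2 GAS matches followed by 1 ISRE match, which begins 53 bases before the start. Ifit1 holds 2 ISRE matches, the first 104 bases before the start. The Samhd1 window has no ISRE match and 1 GAS match, 235 bases before the start. These are matches of letters within these windows and were not tested for binding or activity.

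Antiviral effectors varied more between libraries than any other role group. The 13 tested effectors had a median log2 fold change of -0.37, with 6 above zero and 7 below, and 8 of the 13 had at least 1 library without counts (61.5%, against 33.4% of all tested genes). Their median coefficient of variation over the Treg libraries was 118%, compared with 40.0% for the GTPases and 76.3% for all tested genes. Among the effectors, only Samhd1 (22.8%) and Eif2ak2 (32.0%) were under the GTPase median. Many effectors were lower in CPM than the GTPases, and groups were not compared at matched levels.

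Samhd1, an enzyme that destroys the nucleotides retroviruses need to copy their genome, had counts in every library. It was at 1349, 1180.3, 754 and 1102 CPM in Tregs 1 to 4, against 338 and 391 CPM in Teffs 1 and 2. The lowest Treg library, Treg 3, was well above both Teffs. Its mean was 1096 ± 250.5 CPM in Tregs (SD, n = 4), against 365 ± 37.4 CPM in Teffs (SD, n = 2), and its log2 fold change of 1.59 ± 0.36 (SE) had adjusted p-values of 0.381 by edgeR and 0.000325 by DESeq2. Oasl2, a member of the oligoadenylate synthetase family (chr5:114896936-114912234, plus strand), ran the other way, with 0 counts in all 4 Treg libraries, against 32.0 and 16.5 CPM in Teffs 1 and 2. Its 327 counts in Teffs were 210.1-fold a floor of 3 counts over the Treg group, a ratio that covers counting error only. It passed the filter on low counts through the Teffs alone. Of all tested genes, 21.6%, 19.9%, 5.90% and 11.3% had no counts in Tregs 1 to 4, against 2.23% and 7.10% in Teffs 1 and 2. The adjusted p of Oasl2 was 0.685 by edgeR and 0.0203 by DESeq2. Among all tested genes, 59 (0.501%) had no counts in any Treg and 20 or more in both Teffs.

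Ifit1, Mx1 and Usp18 shared a pattern, and were singled out after their values were seen. Ifit1, which binds viral RNA caps, was at 48.7 CPM in Treg 1 and had no counts in Tregs 2, 3 and 4, against 18.0 and 28.3 CPM in Teffs 1 and 2. Mx1, which encodes a dynamin-like GTPase, was at 61.0 CPM in Treg 1 and absent from the counts of the other Tregs, against 45.4 and 83.9 CPM in Teffs. Usp18, which strips ISG15 from proteins and dampens the type I receptor, was at 52.3 CPM in Treg 1 and 0 in Tregs 2, 3 and 4, against 32.8 and 15.3 CPM in Teffs. Each was thus found in both Teff libraries and in a single Treg library, always Treg 1. That pattern, with 20 or more counts in each library that had any, was met by 3 of 45 members (6.67%) and by 21 of 11775 tested genes (0.178%). A count of 0 allows up to 0.480, 0.526 and 0.428 CPM in Tregs 2, 3 and 4.

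Other effectors were also patchy in Tregs. Oas3, a synthetase of the oligoadenylates that activate RNase L, was at 113, 0.160, 0 and 56.1 CPM in Tregs 1 to 4, against 58.8 and 85.7 CPM in Teffs 1 and 2. Its Treg libraries lay on both sides of the Teffs. Ifit2 was at 108, 0, 43.5 and 0.143 CPM in Tregs 1 to 4 and at 35.9 and 9.30 CPM in Teffs, while Ifit3 did not exceed 8.84 CPM in any library. Ifit3 shares 51.2% of its 50-base stretches with Ifit3b, so its level is uncertain. Bst2, which tethers budding virus to the cell surface, was at 83.5, 2.88, 51.9 and 129 CPM in Tregs 1 to 4, on both sides of the 63.1 and 58.9 CPM in Teffs. Isg20, an exonuclease of viral RNA, ranged from 30.5 to 143 CPM in Tregs and was at 98.5 and 114 CPM in Teffs. Oas1a was higher in every Treg library, at 15.2, 29.3, 1.93 and 1.85 CPM in Tregs 1 to 4 against 1.59 and 1.74 CPM in Teffs 1 and 2. The margin in Tregs 3 and 4 was a small part of a CPM, and 57.6% of its 50-base stretches are shared with Oas1g, so reads of both genes cannot be kept apart with certainty. The antiviral kinase Eif2ak2 was at 20.7 to 46.4 CPM in Tregs and 20.7 and 26.4 CPM in Teffs, Rsad2 did not exceed 13.9 CPM, and Oas2 was at 21.0 CPM in Treg 4, under 1 CPM in the other Tregs, and at 16.0 and 0 CPM in Teffs.

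**Figure D3:**
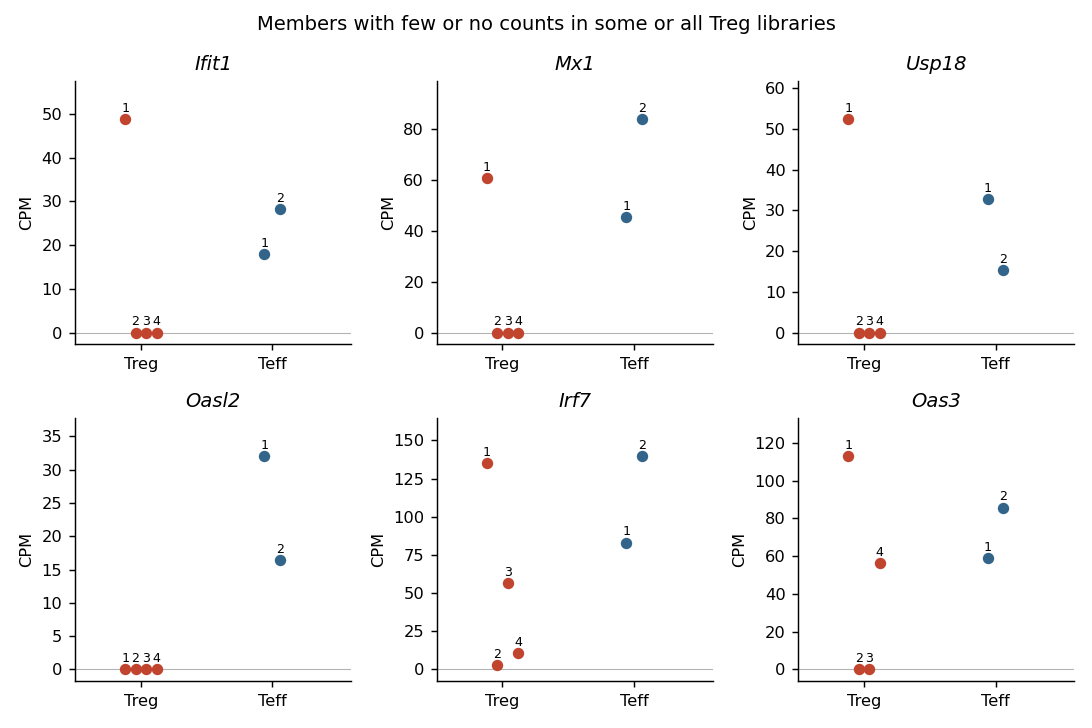
CPM (y axis) of Ifit1, Mx1, Usp18, Oasl2, Irf7 and Oas3 in Treg (red, left) and Teff (blue, right) libraries, numbered by library. Ifit1, Mx1 and Usp18 have counts in Treg 1 and in both Teffs, Oasl2 in the Teffs, and Irf7 and Oas3 are lowest in Treg 2 (2.88 CPM) and Treg 3 (0 CPM).

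The 6 transcription factors and signalling genes had a median log2 fold change of 0.31, 4 above zero and 2 below, and none had groups that did not overlap. Irf1, a transcription factor that both interferon types induce, was the most abundant of them, with 988, 816, 831 and 1389.8 CPM in Tregs 1 to 4, against 540.1 and 923 CPM in Teffs 1 and 2. Tregs 2 and 3 lay between the Teffs and Tregs 1 and 4 above them, for a log2 fold change of 0.46 ± 0.38 (SE). Irf7, which amplifies type I interferon production, was at 135, 2.88, 56.6 and 10.7 CPM in Tregs 1 to 4, against 83.1 and 139.7 CPM in Teffs. Its level in Treg 1 was within the Teff range and was 46.9-fold that in Treg 2. Stat2 was at 362, 171, 101 and 145 CPM in Tregs 1 to 4 and at 104 and 101 CPM in Teffs, with Treg 3 at the Teff level. Its partner Irf9 was at 412, 182, 122 and 244 CPM in Tregs 1 to 4 and at 230.5 and 184 CPM in Teffs. Treg 1 was the highest library for both partners and Treg 3 the lowest in Tregs. Isg15, a ubiquitin-like protein joined to other proteins during infection, was low everywhere, at 8.16 to 25.9 CPM in Tregs and 11.4 and 12.2 CPM in Teffs.

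Among the 9 sensors and regulators the median log2 fold change was -0.12, with 4 above zero and 5 below, or 3 above and 6 below under upper-quartile scaling, and the groups overlapped for each. The cytosolic RNA helicases differed in which libraries were high. Ifih1 (MDA5) was at 61.7, 2.08, 12.1 and 45.8 CPM in Tregs 1 to 4 and 16.2 and 20.9 CPM in Teffs. Ddx58 (RIG-I) was at 52.1, 56.0, 102 and 130.1 CPM in Tregs 1 to 4 and 103 and 137 CPM in Teffs, and Dhx58 (LGP2) at 0.180, 40.5, 21.9 and 21.3 CPM in Tregs 1 to 4 and 35.2 and 24.6 CPM in Teffs. Treg 1 thus had the highest Ifih1 and the lowest Ddx58 and Dhx58 of the Tregs. The DNA and RNA sensor Zbp1 ranged from 60.3 to 233 CPM in Tregs and was at 111 and 82.0 CPM in Teffs. Ifi203, a member of the HIN family of nucleic acid binders, was at 116 to 252 CPM in Tregs and 159 and 201 CPM in Teffs, and its relative Ifi204 did not exceed 8.13 CPM. Trim30a was the most even member of this role group, with 135 to 179 CPM in Tregs and 124 and 154 CPM in Teffs. Trim25, a ubiquitin ligase that acts on RIG-I, was at 2.53, 17.8, 28.2 and 42.8 CPM in Tregs 1 to 4, against 77.8 and 26.7 CPM in Teffs 1 and 2. Xaf1, which binds the apoptosis inhibitor XIAP, was at 14.1, 5.92, 9.12 and 40.2 CPM in Tregs 1 to 4, against 38.0 and 43.0 CPM in Teffs. For Xaf1, Treg 4 was at the Teff level and the other Tregs were below it, and the log2 fold change of -1.22 ± 1.12 (SE) had an edgeR adjusted p of 0.999976.

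The 8 PARP-complex and other genes had a median log2 fold change of 0.39, with 5 above zero and 3 below. Ifi27l2a, a small interferon-induced protein, was higher in every Treg library, at 216, 365, 229.7 and 482 CPM in Tregs 1 to 4 against 178 and 186 CPM in Teffs 1 and 2. Treg 1 and Treg 3 were close to the Teffs and Tregs 2 and 4 well above them. It averaged 323 ± 125 CPM in Tregs (SD, n = 4) and 182 ± 5.38 CPM in Teffs (SD, n = 2), a log2 fold change of 0.83 ± 0.44 (SE) with an edgeR adjusted p of 0.999976. Per kilobase of exon it was the most abundant of the 46 members, at 698 CPM per kb in Tregs and 393 CPM per kb in Teffs, followed in Tregs by Igtp (326) and Irf1 (253) and in Teffs by Irf1 (184) and Igtp (169). Rtp4, a receptor transporter protein with antiviral activity, was the other member lower in every Treg library, at 56.8, 26.4, 29.5 and 57.4 CPM in Tregs 1 to 4 against 65.8 and 64.9 CPM in Teffs. Tregs 1 and 4 lay just under the Teffs, and the log2 fold change was -0.62 ± 0.68 (SE). Lgals3bp, a secreted glycoprotein that binds galectins, was at 105, 0.480, 20.2 and 14.3 CPM in Tregs 1 to 4, against 197 and 100.4 CPM in Teffs, with Treg 1 just above Teff 2. Parp14, a mono-ADP-ribosyltransferase, was at 472, 169.9, 137 and 229 CPM in Tregs 1 to 4 and 169.6 and 114 CPM in Teffs, with Treg 3 between the Teffs. Parp9 and its partner Dtx3l, which are transcribed from opposite strands with overlapping exons, were highest in Treg 1, at 272 and 299 CPM. In Tregs 2 to 4, Parp9 was at 139, 133 and 86.6 CPM and Dtx3l at 180, 206 and 157 CPM. Teffs 1 and 2 had 151 and 105 CPM of Parp9 and 167 and 135 CPM of Dtx3l, so the groups overlapped for both genes. Ifi35 was even across libraries, at 119.8 to 164 CPM in Tregs and 141 and 189 CPM in Teffs, and Ifi44 was at 38.2 CPM in Treg 2, 15.4 CPM in Treg 4, 0 in the other Tregs, and at 0 and 2.13 CPM in Teffs.

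**Figure D4:**
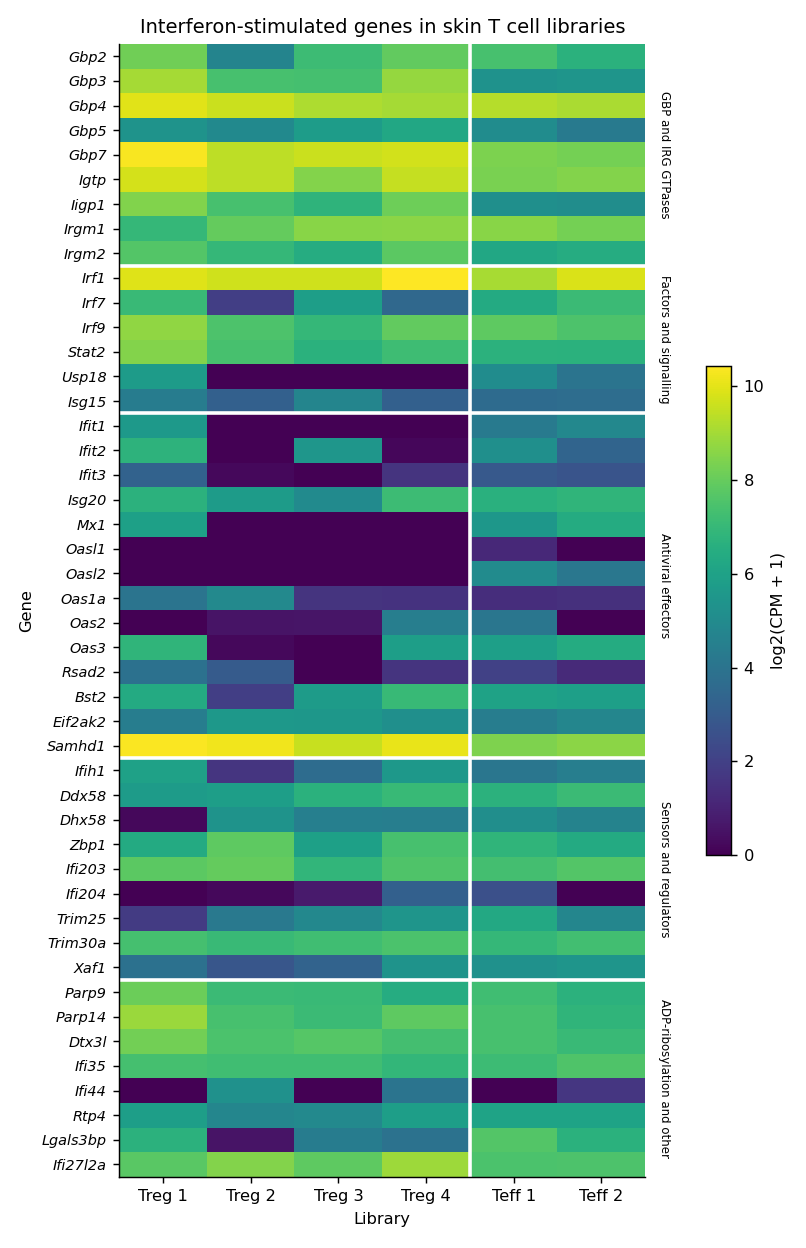
Level of all 46 members, as log2(CPM + 1) (colour), in the 4 Treg and 2 Teff libraries (x axis), with genes grouped by role (y axis). The GTPases have counts in every library, while antiviral effectors such as Ifit1 and Mx1 are at 0 in Tregs 2, 3 and 4.

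Across the whole list the Treg libraries were not alike. Treg 1 was the highest Treg library for 24 of 45 members (53.3%), against 25.0% of all tested genes, and Treg 4 for 14 (31.1%), against 21.9%. Ties for the highest went to the library with the lower number. Oasl2, with no counts in any Treg, is therefore among the 24, and other such genes are within the 25.0%. Treg 3 was the highest for 1 member (2.22%), against 28.3% of all genes, and the lowest for 14, with Treg 2 the lowest for 13. The level of a library, taken as the median over members of log2 CPM minus the gene's mean (with both groups weighted equally), was 0.82, -0.18, -0.21 and 0.38 in Tregs 1 to 4 and 0.09 and -0.03 in Teffs 1 and 2. Over all tested genes the same measure was -0.32, -0.25, 0.20 and 0.07 in Tregs 1 to 4 and 0.26 and 0.16 in Teffs. Treg 1 was thus the highest library for these genes and the lowest for genes at large. In summed CPM over the 46 members, the Tregs were at 10798, 7199, 6116 and 9041, against 5477 and 5595 in the Teffs, and GTPases gave the largest share. Abundant genes weigh most in such a sum. By the median level above, Tregs 2 and 3 were instead below both Teffs.

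The GTPases were the sole role group whose level was above every Teff in every Treg, at 0.93, 0.28, 0.35 and 0.92 in Tregs 1 to 4, against -0.53 and -0.36 in Teffs 1 and 2. The antiviral effectors were split, at 1.65, -2.60, -1.49 and -0.19 in Tregs 1 to 4, against 1.22 and 0.32 in Teffs. Treg 1 exceeded both Teffs and the other Tregs lay below them. Removing Treg 1 changed the count of members lower in every Treg library than in both Teffs, which was 2 with all libraries and 9 without Treg 1 (Irf7, Usp18, Ifit1, Ifit3, Mx1, Oasl2, Oas3, Rtp4 and Lgals3bp), where 14.1% of all genes met the same rule. Without Teff 1 that count was 7 (16.2% of all genes), and it was 4 without Treg 4 (14.3%) or without Teff 2 (18.9%). The count of members higher in every Treg library was 7 with all libraries, where 5.51% of all genes met the rule. It was 8 without Treg 1 (9.81% of all genes) and 11 without Teff 2 (8.35%). Without Treg 3, in which fibroblast and keratinocyte markers summed highest, the count higher was 10, where 8.83% of all genes were, and without both Treg 3 and Teff 1 it was 14, where 13.9% were. Gbp3, Gbp7, Iigp1, Samhd1, Oas1a and Ifi27l2a were among them in each of these cases.

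**Figure D5:**
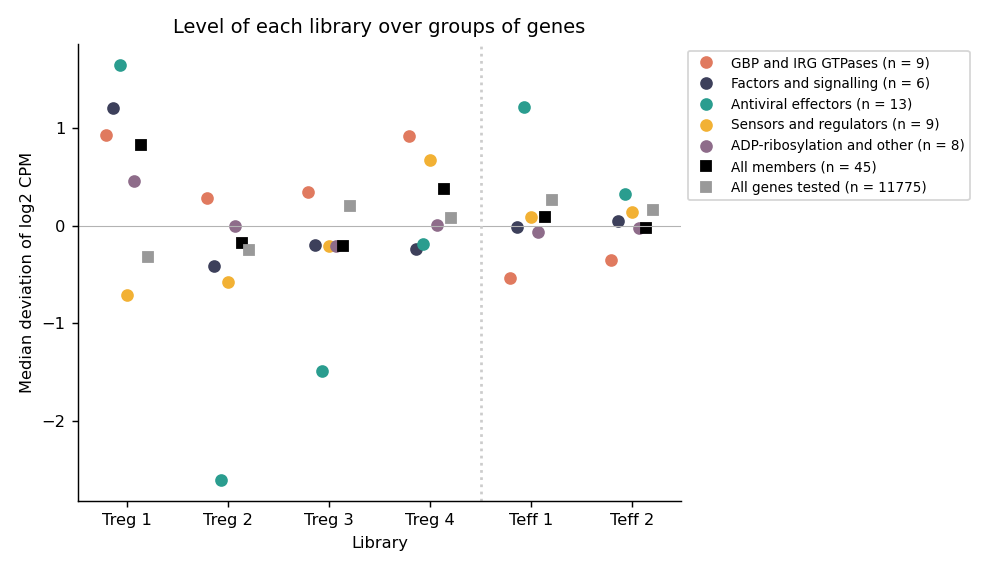
Median deviation of log2 CPM from each gene's mean (y axis) in each library (x axis, Tregs left of Teffs). Circles are the role groups, and squares are all members and all tested genes. GTPases lie above zero in all Tregs and below zero in both Teffs, whereas antiviral effectors run from 1.65 in Treg 1 to -2.60 in Treg 2.

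Markers of other blood and skin cells also differed between libraries. Macrophage markers (6 of 7 found) summed to 165, 182, 150 and 539 CPM in Tregs 1 to 4, against 281 and 196 CPM in Teffs; Emr1 was at 0 in Tregs 1, 2 and 3, and Lyz2 gave 464 of the 539 CPM in Treg 4. Csf1r was in contrast highest in Treg 1, at 78.1, 0, 33.1 and 0.713 CPM in Tregs 1 to 4, against 31.6 and 15.9 CPM in Teffs. Dendritic or Langerhans cell markers (4 of 5 found) summed to 19.5, 28.3, 23.1 and 115 CPM in Tregs and 34.4 and 32.4 CPM in Teffs, with Itgax at 0 in Tregs 1, 2 and 3. Treg 4 had the highest sum of both lists. Plasmacytoid dendritic markers (2 of 2 found) summed to 30.5, 0, 103 and 95.7 CPM in Tregs 1 to 4 and 76.8 and 42.8 CPM in Teffs, so the groups overlapped. Of these, Siglech was at 0 in all 4 Tregs, against 28.7 and 2.13 CPM in Teffs, and the whole Treg sum was Tcf4. CD8 T cell markers (2 of 2 found) summed to 0.180 to 65.6 CPM in Tregs and 93.6 to 142 CPM in Teffs. The part of these cells in the members' levels was not tested.

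Of 80 other genes listed for the interferon pathway, 72 were found in the table and 68 were tested. Their median log2 fold change was -0.22, with 24 above zero (35.3%, against 53.4% of all tested genes) and 44 below, and edgeR called 0 of them. At an unadjusted p under 0.05, 1 of the 68 was higher in Tregs (Ly6e), against 2.42% of all genes, and 5 were lower (Ifng, Mx2, Gbp9, Psmb8 and Slfn2), against 2.31%. DESeq2 called Ifng alone, against 1.78% of all genes, and so did the authors' deposited table, against 0.285%. Of the 68, 4 lay higher and 14 lower in every Treg library than in both Teff libraries, where 5.51% and 9.49% of all tested genes did. Of the 45 further induced genes tested, 12 were above zero and 33 below.

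Ifng, which encodes interferon gamma, was at 16.2, 43.8, 10.2 and 47.9 CPM in Tregs 1 to 4, against 232 and 393 CPM in Teffs 1 and 2. All Tregs were far below both Teffs, with a mean of 29.5 ± 19.1 CPM in Tregs (SD, n = 4), against 313 ± 114 CPM in Teffs (SD, n = 2). Its log2 fold change was -3.40 ± 0.67 (SE), with adjusted p-values of 0.283 by edgeR and 0.000740 by DESeq2. The receptor genes had overlapping groups: Ifnar1 was at 227 to 445 CPM in Tregs and 184 and 233 CPM in Teffs, and Ifnar2 at 17.0 to 65.7 CPM in Tregs and 47.3 and 71.9 CPM in Teffs. Ifngr1 was at 507 to 911 CPM in Tregs and 629.7 and 802 CPM in Teffs, and Ifngr2 at 7.94 to 39.8 CPM in Tregs and 8.87 and 13.4 CPM in Teffs. Socs1, an inhibitor of JAK signalling, was at 0, 13.8, 7.89 and 11.98 CPM in Tregs 1 to 4 and 3.31 and 3.10 CPM in Teffs.

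Other genes of the pathway did not all share the direction of the leading members. Of 6 GBP and IRG genes outside the members (Gbp6, Gbp8, Gbp9, Ifi47, Tgtp1 and Tgtp2), 1 had a log2 fold change above zero and 5 below, against 8 above and 1 below among the 9 member GTPases. Of the 6, Gbp6 lay higher in every Treg library, as did 5.51% of all tested genes, and Gbp9 and Tgtp1 lower, as did 9.49%. Tgtp1 was low throughout, at 1.40 to 5.23 CPM in Tregs and 6.75 and 6.59 CPM in Teffs 1 and 2. Its log2 fold change was -1.18 ± 1.65 (SE). The genes of this paragraph were chosen after their values were seen. Gbp6 was at 114, 77.0, 82.9 and 114 CPM in Tregs 1 to 4, against 44.5 and 42.4 CPM in Teffs, and lay above both Teffs in every Treg (log2 fold change 1.16 ± 0.52, SE). Gbp9, on the same chromosome 5 cluster, was at 132, 86.1, 81.9 and 72.1 CPM in Tregs 1 to 4, against 186 and 201 CPM in Teffs, and lay below both in every Treg (log2 fold change -1.06 ± 0.41, SE, edgeR adjusted p = 0.901). The exons of Gbp4, Gbp8 and Gbp9 overlap in part in the annotation, so reads from there could not be given to a single gene. Psmb8, a catalytic subunit of the immunoproteasome, was at 436, 363, 325 and 291 CPM in Tregs 1 to 4, against 776 and 685 CPM in Teffs. Every Treg was below both Teffs, with a log2 fold change of -1.05 ± 0.30 (SE) and an edgeR adjusted p of 0.721. Psmb9, another such subunit, also lay below both Teffs in every Treg, with a log2 fold change of -0.67 ± 0.37 (SE). Mx2, the neighbour of Mx1, had 0.160 CPM in Treg 2 and 0 in the other Tregs, against 13.9 and 4.65 CPM in Teffs, and Cmpk2, a nucleotide kinase, had 3.42 CPM in Treg 4 and 0 in the other Tregs, against 22.2 and 19.6 CPM in Teffs. Unlike Mx1, neither had counts in Treg 1.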

How the data were processed

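Per the labels' protocols, column-purified RNA of sorted skin T cells was made into cDNA with the SMARTer low-input chemistry. Tools listed in the submitters' processing notes are HTSeq 0.6.1, TopHat2 2.0.12 and Bowtie2 2.1.0.0, with build mm10. For that counting, the annotation and strand setting were not given in the sources used here. Raw counts per gene were deposited for 6 libraries, beside the authors' own comparison, in which fold changes are on the log2 scale and come with a p-value and a false discovery rate, per the file headers.

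Counter entries that name no gene took 88.0% to 90.2% of column totals (reads aligned to several places 61.2% to 66.2%) and were left out, so genes with close copies may be undercounted. Here counts were filtered with filterByExpr (smallest count 10), scaled by TMM (factors 0.913 to 1.05) and tested with the quasi-likelihood test of edgeR 4.0.16 in R 4.3.3 on group alone, Treg minus Teff, with Benjamini-Hochberg adjustment over 11775 genes and a call at 0.05; the step was checked on simulated counts. The standard error is the log2 fold change over the root of its F statistic. An exact permutation test of 4 against 2 libraries cannot go below p = 0.0667. DESeq2 1.42.0, other scalings and filters, a replicate block and leaving out each library were alternatives; counts without both Treg 3 and Teff 1, non-overlap counts and library levels under other settings were added after seeing the data.

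The members and gene lists were chosen with earlier results of these data known. Members were named with all values where called, where groups did not overlap, for the 6 highest means, for the 4 smallest p-values in each direction, or with no counts in 1 group; 8 other genes were to be named whatever their result, of which 1 is not reported here, and further names were chosen after their values were seen. Positions, exon lengths and shared 50-base stretches came from GENCODE vM21 (GRCm38), and promoters from RefSeq.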

Additional observations from a re-analysis of the deposited data

Results flagged for a closer look

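Among the 4 Treg libraries, the highest or lowest stood apart from the other 3 by Dixon's 95% criterion for 5 of the 45 tested members (11.1%). That held for 19.4% of all 11775 tested genes, and in the 5 members it was always the highest library. For normally distributed values chance alone gives about 1 in 20 groups, but any gene with counts in a single Treg library meets the criterion. Treg 1 stood apart for Usp18 at 52.3 CPM, for Ifit1 at 48.7 CPM and for Mx1 at 61.0 CPM, while the other Tregs had no counts of them. Treg 4 stood apart for Oas2 at 21.0 CPM and for Ifi204 at 8.13 CPM. Among other pathway genes named in the text, Treg 2 stood apart for Slfn2, a growth regulator of T cells, at 395 CPM against 261 to 269 CPM in the other Tregs, and for Mx2 at 0.160 CPM, which is under the floor of 3 counts. Treg 4 stood apart for Cmpk2 at 3.42 CPM. Treg 3 stood apart for Ifitm1 at 31.6 CPM; it was also the library with the most fibroblast marker counts, and the part of these cells in Ifitm1 was not tested.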

How the results depend on the processing

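Depth limits the low members: a level under 0.397 to 0.581 CPM, depending on the library, was not detectable. DESeq2's Wald test called 5 members (4 higher, 1 lower) and 1 other pathway gene where edgeR called 0 of each under every other setting run. Over all genes, edgeR called 5; without a filter on low counts it called 19, DESeq2 called 183, leaving out each library gave 0 to 2, and leaving out Treg 3 and Teff 1 gave 0. Members higher in every Treg than in both Teffs numbered 7, where 5.51% of all tested genes met the rule. They numbered 7 to 11 when each library was left out (11 without Teff 2), where 7.77% to 9.81% of all genes did. Without Treg 3 and Teff 1 they numbered 14, where 13.9% of all genes did. Members lower in every Treg numbered 2 (9.49% of all genes), and 1 at a mean CPM of 10 or more (8.34%). When each library was left out they numbered 2 to 9 (9 without Treg 1, 7 without Teff 1, 4 without Treg 4 or Teff 2). The share of all genes in those settings was 13.5% to 18.9%. Without Treg 3 and Teff 1 the members lower numbered 7, where 23.8% of all genes met the rule. The members' median log2 fold change was 0.04 to 0.46 over all settings; upper-quartile scaling put it at 0.18 and the median of all genes at -0.04. Fold changes stayed at 2.66 to 3.21 for Gbp3, 2.41 to 2.97 for Iigp1, 1.26 to 1.62 for Gbp7 and 1.47 to 1.79 for Samhd1.

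Of 870 values over 68 named genes, 35 in 20 genes changed sign. Leaving out each library gave log2 fold changes of -0.45 to 0.0026 for Irgm1, -0.31 to 0.061 for Ifngr1, -2.60 to 2.96 for Ifitm1, -1.32 to 1.46 for Ifitm2, -2.12 to 1.26 for Ifitm3, -0.18 to 0.44 for Irf9, -0.64 to 2.01 for Ifit2, -1.55 to 8.04 for Oas2, -0.40 to 0.53 for Bst2, -0.054 to 0.30 for Ifi203, -1.13 to 6.76 for Ifi204, -0.097 to 0.58 for Parp9 and -0.39 to 0.023 for Ifi35. Leaving out Treg 3 and Teff 1 gave 0.099 for Ifngr1, 0.39 for Ifitm2, 0.19 for Usp18, -0.0078 for Isg15, 8.42 for Oas2 and 7.06 for Ifi204, and upper-quartile scaling gave -0.0074 for Ifi203. The cause was not tested.

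The groups share replicate numbers 1 and 2 alone, and the deviations of same-numbered libraries had correlations of -0.04 and 0.15. The deviations of the 2 Teffs from their mean mirror each other, so this check cannot decide whether the numbers pair libraries. No pairing was used in the main test. With the replicate block edgeR called 15 genes and 0 members, the median of all genes was -0.64, and log2 fold changes were -1.43 for Socs1, -0.38 for Cxcl10, -0.36 for Tlr7, -2.15 for Ifit2, -1.93 for Bst2, -0.66 for Ifih1 and -0.58 for Gbp2.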

Other observations

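The IFITM genes, which keep enveloped viruses from fusing with endosomes, differed widely between libraries and were chosen after their values were seen. Ifitm3 was at 3.61, 0.480, 82.2 and 16.3 CPM in Tregs 1 to 4, against 49.1 and 10.5 CPM in Teffs 1 and 2. Ifitm2 was at 9.92, 5.76, 63.3 and 18.7 CPM in Tregs 1 to 4, against 49.2 and 8.72 CPM in Teffs. Ifitm1 was at 31.6 CPM in Treg 3 and 0 in the other Tregs, against 44.9 and 0.969 CPM in Teffs. Treg 3 and Teff 1, the highest library of each group for all 3 genes, also led their groups in fibroblast markers, with sums of 1994 CPM and 176 CPM. The other Tregs did not keep this order: Treg 4 exceeded Treg 1 in Ifitm3 and Ifitm2 but had the lower fibroblast sum (3.85 against 8.30 CPM). The part of these cells was not tested.

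Slfn2, a Schlafen gene that keeps T cells quiescent in mice, was at 269, 395, 264 and 261 CPM in Tregs 1 to 4, against 700.3 and 579 CPM in Teffs 1 and 2, with every Treg below both Teffs (log2 fold change -1.11 ± 0.32, SE, edgeR adjusted p = 0.721). Ly6e, a surface protein that blocks coronavirus entry, was at 2525, 2496, 1830.0 and 2962 CPM in Tregs 1 to 4, against 1408 and 1431 CPM in Teffs, with every Treg above both (log2 fold change 0.79 ± 0.32, SE, edgeR adjusted p = 0.939). Cxcl10, a chemokine that draws CXCR3-bearing T cells, ranged from 4.80 CPM in Treg 2 to 207 CPM in Treg 4, against 16.7 and 26.7 CPM in Teffs. Tlr7, an endosomal sensor of viral RNA, was at 0, 28, 25.2 and 16.1 CPM in Tregs 1 to 4, against 2.25 and 2.33 CPM in Teffs, so that Treg 1 was below both Teffs and the other Tregs above them.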
